A study of Mus musculus with 9 samples.

Results

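The respiratory chain subunits are the nuclear-encoded proteins of the 4 respiratory complexes of the mitochondrion and the electron carrier cytochrome c. A list of 51 genes was matched by gene symbol to the probe sets of the array table, where a probe set is a group of short probes that together measure 1 gene. Of the 51, 49 were found among the 24704 probe sets tested, and *Uqcrb* and *Cox7c* had no probe set under their symbol. The 49 comprised 25 genes of complex I, 4 of complex II, 6 of complex III, 13 of complex IV and *Cycs*, the gene of cytochrome c itself. *Ndufa4*, named after complex I, was counted with complex IV, to which its protein belongs.

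Myoblasts grown from skeletal muscle satellite cells, the stem cells of the tissue, of C57BL/6 mice (the N substrain in the study's methods) were differentiated for 24 h and then cultured for a further 24 h in one of 3 ways, with 3 arrays per group. The control cells received neither agent, the TGFβ1 cells received the growth factor at 20 ng/ml, and the third group received ITD-1, a compound that makes cells clear and degrade their type II receptor for TGFβ (5 µM in the study's methods, 5 mM in the sample labels). No genetic change separated the groups, and all were primary cells in culture, which limits them as a model of muscle tissue. The comparison asks how the expression of the respiratory genes differs between differentiating myocytes with an added TGFβ signal, an inhibited one or neither. The paper states that ITD-1 did not inhibit this signal fully in its assays.

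Complexes I and II pass electrons from NADH and succinate to ubiquinone, complex III hands them to cytochrome c, and complex IV, cytochrome c oxidase, reduces oxygen. Complexes I, III and IV pump protons, and the gradient drives ATP synthase. As myoblasts differentiate into muscle they build more mitochondria and exchange some ubiquitous complex IV subunits for isoforms typical of heart and skeletal muscle, among them *Cox6a2*, *Cox7a1* and *Cox8b*, the last of which, like *Cox7a1*, is also expressed in brown fat.

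Values are log2 expression after RMA normalization, on which 1 unit stands for a 2-fold change. A gene is said to have fallen or risen where limma's two-sided moderated test gave a Benjamini-Hochberg adjusted p under 0.05 over all 24704 probe sets. Array medians lay between 4.09 and 4.19, and the arrays of a group correlated at r = 0.992 to 0.996 against 0.983 to 0.995 between groups. All 5 measured genes of a TGFβ response list of 6 rose with TGFβ1, with a median log2 fold change of 1.60. One of them, fibronectin (*Fn1*), fell with ITD-1 (log2 fold change -0.76, adjusted p = 0.0140). The other 4 did not pass with ITD-1 (*Tgfb1* -0.48, *Ccn2* -0.17, *Skil* -0.10 and *Smad7* 0.16). The 10 myocyte markers averaged 11.2 to 11.3 on the TGFβ1 arrays, just below the control arrays (11.3 to 11.4). Myogenin (*Myog*) did not pass the test with TGFβ1 (log2 fold change -0.10), while the myosin heavy chains *Myh8* (-1.22) and *Myh3* (-0.31) fell and muscle creatine kinase (*Ckm*, 0.93) rose.

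The median fold change with TGFβ1 was below 0 in every complex. The list of genes was chosen with earlier results of these data known, so the shares below describe it and are not an independent test. Of the 49 genes, 12 fell (24.5%) and none rose, beside 2.78% of all tested probe sets that fell and 3.65% that rose, and 27 were lower at an unadjusted p under 0.05 with none higher, beside 7.68% and 8.44% of all tested probe sets. The median log2 fold change was -0.28, a decrease of 17.9%, against -0.01 over all tested probe sets. The fold changes ran from -0.87 for *Cox6a2* to 0.02 for *Cox7b*, and 47 of 49 were below 0, beside 54.7% of all tested probe sets. In 32 of the 49 genes all TGFβ1 arrays lay below all control arrays, which was so for 10.1% of all tested probe sets. In 45 of the genes the mean over all arrays was at or above the median of the tested probe sets (4.14), where 5.36% of probe sets fell.

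**Figure D1:**
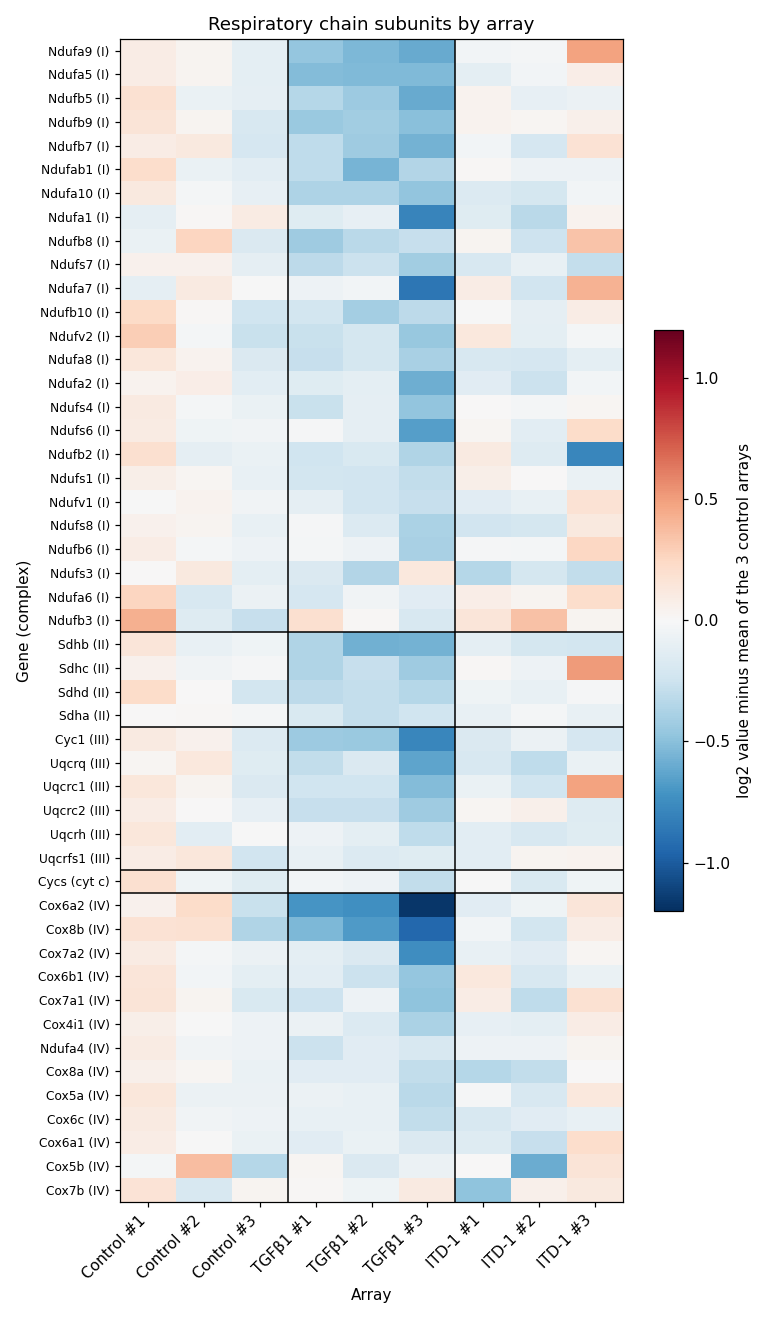
Log2 value of each of 49 respiratory chain genes (rows, with the complex in parentheses) on each of the 9 arrays (columns), shown as the difference from the mean of the 3 control arrays, in blue where lower and red where higher. The 3 TGFβ1 columns are blue in nearly every row, with TGFβ1 replicate 3 the darkest, while the control and ITD-1 columns hold both colours.

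The arrays within a group were not alike. Averaged over the 49 genes and set against the control mean, the control arrays stood at 0.11, 0.01 and -0.12, the TGFβ1 arrays at -0.22, -0.25 and -0.43, and the ITD-1 arrays at -0.07, -0.13 and 0.04. All TGFβ1 arrays were thus below all control and ITD-1 arrays, but control replicate 3 and TGFβ1 replicate 1 were closer to each other than control replicates 1 and 3. In both the control and the TGFβ1 group the values fell from replicate 1 to replicate 3, and fits with the replicate number as a block are given below. TGFβ1 replicate 3 gave the lowest of the 9 values in 34 of 49 genes (69.4%), against 14.4% of all tested probe sets. Control replicate 1 gave the highest control value in 36 of 49 (73.5%, against 35.03%), and ITD-1 replicate 3 the highest ITD-1 value in 34 of 49 (69.4%, against 34.1%). What sets these arrays apart was not tested.

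The count of genes that fell depended on single arrays. It was 4 without control replicate 1 (beside 1.86% of all tested probe sets), 4 without control replicate 2 (1.76%) and 14 without control replicate 3 (2.45%). It was 8 without TGFβ1 replicate 1 (1.81%), 6 without TGFβ1 replicate 2 (2.18%) and 5 without TGFβ1 replicate 3 (2.04%). In each of these fits 47 or 48 of the 49 fold changes were below 0. When each array was centred on its median, 7 genes fell (beside 2.11% of all tested probe sets). The study's one-way analysis of variance was run here as its contrast of TGFβ1 and control. In it 5 fell after adjustment over all probe sets (beside 1.93% of them). By the study's own criteria of an unadjusted p under 0.05 and at least a 1.5-fold change 2 fell (beside 1.28%).

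The RNA came from whole cultures, in which fewer cells of a type and less RNA per cell cannot be told apart. None of the markers of fibroblasts and fibro-adipogenic progenitors (4 measured of 5 listed), endothelial cells (4), macrophages and leukocytes (4) or adipocytes (4) passed the test with TGFβ1 or ITD-1, and 15 of these 16 genes lay below the median level of the tested probe sets. Averaged over a list, these markers stood at 3.13 to 3.77 on the TGFβ1 arrays and 3.20 to 3.77 on the control arrays.

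Complex I, NADH dehydrogenase, has a matrix arm that takes electrons from NADH and a membrane arm that pumps protons. Of its 25 genes, 7 fell with TGFβ1 (beside 2.78% of all tested probe sets) and the median log2 fold change was -0.31. *Ndufa5*, an accessory subunit of the matrix arm, measured 8.51, 8.45 and 8.30 on the control arrays, 7.90, 7.90 and 7.89 with TGFβ1 and 8.30, 8.39 and 8.50 with ITD-1. The TGFβ1 arrays were nearly identical to one another and lay below all others, while control and ITD-1 arrays overlapped. The expression of *Ndufa5* was 30.6% lower with TGFβ1 (log2 fold change -0.53, SE 0.08, limma adjusted p = 0.00277), the smallest adjusted p among the 49 genes, and it fell in all 19 alternative analyses.

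*Ndufb9*, an accessory subunit of the membrane arm, measured 11.36, 11.24 and 11.02 in control cells, 10.76, 10.79 and 10.70 with TGFβ1 and 11.24, 11.23 and 11.26 with ITD-1. Again the TGFβ1 arrays were lowest without overlap, and the ITD-1 arrays lay within the control range (log2 fold change -0.45, SE 0.09, limma adjusted p = 0.0117). Its call was lost without control replicate 2 (adjusted p = 0.0534). *Ndufa9*, which sits where the arms meet, measured 9.20, 9.15 and 8.99 in control cells, 8.65, 8.58 and 8.50 with TGFβ1 and 9.08, 9.09 and 9.59 with ITD-1. It had the largest decrease of complex I, 31.1% (log2 fold change -0.54, SE 0.13, limma adjusted p = 0.0424), with ITD-1 replicate 3 above every other array. The *Ndufa9* call held in 10 of 19 alternatives and was lost without any one of the control or TGFβ1 arrays (adjusted p = 0.0632 to 0.148) and with the replicate number as a block over all 9 arrays (adjusted p = 0.0841), while it held with the block in a fit of control and TGFβ1 alone (0.0112).

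The other 4 complex I genes that fell, named here after their values were seen, were *Ndufa10* and *Ndufb5* of the membrane arm (log2 fold change -0.41 and -0.46), *Ndufs7*, which carries an iron-sulfur cluster (-0.33), and *Ndufab1*, an acyl carrier protein that also serves mitochondrial fatty acid synthesis (-0.41). They passed in 17, 12, 10 and 7 of 19 alternatives, in that order. The *Ndufa10* call was lost without control replicate 1 or TGFβ1 replicate 3, and that of *Ndufb5* without control replicate 1 or 2 or TGFβ1 replicate 2 or 3. *Ndufs7* was lost without any one of these 4, TGFβ1 replicate 1 or ITD-1 replicate 1, and *Ndufab1* without any one array except control replicate 3. With the block in the fit of control and TGFβ1 alone *Ndufab1* was also lost (adjusted p = 0.0560) and *Ndufb7* passed (0.0280, against 0.0698 without the block and 0.111 with it over all arrays). The 18 complex I genes that did not pass had log2 fold changes from -0.44 (*Ndufb7*) to 0.01 (*Ndufb3*). In 7 of them the TGFβ1 arrays still lay below all control arrays, beside 10.1% of all tested probe sets.

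*Ndufs3*, a core subunit of the matrix arm, had the largest decrease of complex I with ITD-1, and *Ndufb3*, of the membrane arm, the largest increase. Neither passed. With TGFβ1 the log2 fold change of *Ndufs3* was -0.13, below 0 as in 24 of the 25 complex I genes. *Ndufs3* measured 4.81, 4.93 and 4.69 in control cells, 4.64, 4.46 and 4.94 with TGFβ1 and 4.47, 4.60 and 4.51 with ITD-1, so that the TGFβ1 arrays spanned the whole control range and the ITD-1 arrays were below all control arrays. *Ndufb3* measured 3.45, 2.87 and 2.74 in control cells, 3.21, 3.04 and 2.83 with TGFβ1 and 3.16, 3.37 and 3.05 with ITD-1, with overlap among all groups. Its probe set was one of 4 among the 49 whose mean lay below the median of the tested probe sets, with *Cycs*, *Cox5b* and *Cox7b*.

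**Figure D2:**
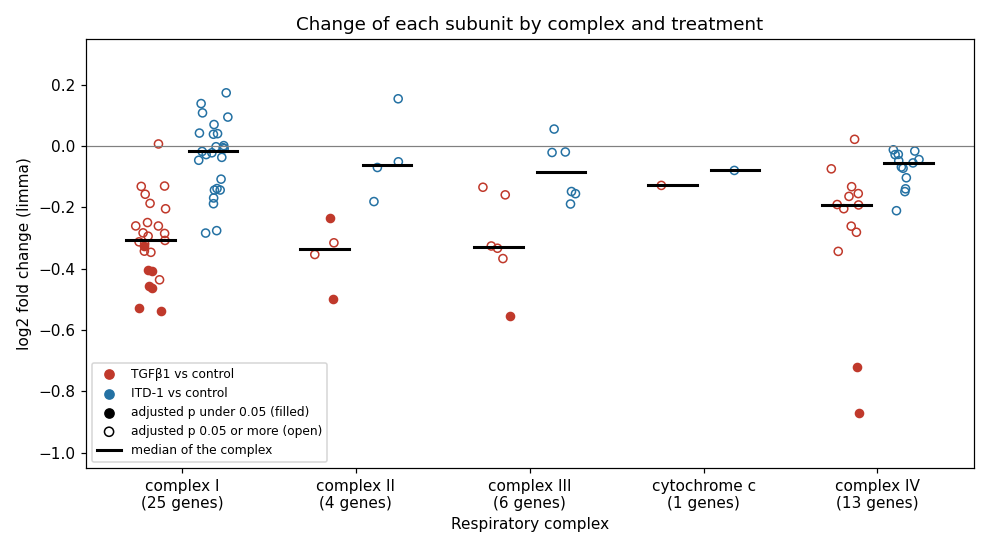
Log2 fold change of each gene (points) against control with TGFβ1 (red) and ITD-1 (blue), by complex, with filled points for a limma adjusted p under 0.05 and black bars for the median of each complex. The medians run from -0.33 to -0.13 with TGFβ1, while with ITD-1 they run from -0.08 to -0.02, and all filled points belong to TGFβ1.

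Complex II, succinate dehydrogenase, is the one complex encoded wholly in the nucleus and also serves the citric acid cycle. In all 4 of its genes the TGFβ1 arrays lay below the control arrays, which was so for 10.1% of all tested probe sets. They also lay below the ITD-1 arrays, for which the share of all tested probe sets is not given here. The median log2 fold change with TGFβ1 was -0.33. *Sdhb*, the iron-sulfur subunit, measured 8.78, 8.54 and 8.58 in control cells, 8.27, 8.06 and 8.07 with TGFβ1 and 8.52, 8.42 and 8.41 with ITD-1. The 3 groups did not overlap, with ITD-1 between control and TGFβ1. *Sdhb* was 29.3% lower with TGFβ1 (log2 fold change -0.50, SE 0.09, limma adjusted p = 0.00766) and fell in all 19 alternatives, while with ITD-1 it did not pass (log2 fold change -0.18, adjusted p = 0.674).

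*Sdha*, the flavoprotein that oxidises succinate, measured 9.996, 10.005 and 9.966 in control cells, 9.808, 9.706 and 9.748 with TGFβ1 and 9.896, 9.966 and 9.896 with ITD-1. The decrease with TGFβ1 was 15.04% (log2 fold change -0.24, SE 0.06, limma adjusted p = 0.0495), at the edge of the threshold. It passed in 6 of 19 alternatives, and was lost with the replicate number as a block (adjusted p = 0.0932 over all arrays and 0.115 over control and TGFβ1 alone) and without any one array except ITD-1 replicate 3 (up to 0.156, without control replicate 2). *Sdhc* and *Sdhd* anchor the enzyme in the inner membrane. *Sdhc* measured 9.42, 9.33 and 9.35 in control cells, 9.01, 9.09 and 8.94 with TGFβ1 and 9.38, 9.31 and 9.87 with ITD-1. *Sdhd* measured 9.07, 8.86 and 8.63 in control cells, 8.54, 8.57 and 8.52 with TGFβ1 and 8.81, 8.77 and 8.84 with ITD-1. Neither passed against control (-0.35, adjusted p = 0.200, and -0.32, adjusted p = 0.121), although their TGFβ1 arrays were below every other array.

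Complex III, the cytochrome bc1 complex, had 1 gene of 6 that fell with TGFβ1 (beside 2.78% of all tested probe sets) and a median log2 fold change of -0.33. That gene was *Cyc1*, cytochrome c1, which donates electrons to cytochrome c. It measured 8.28, 8.23 and 8.01 in control cells, 7.74, 7.73 and 7.39 with TGFβ1 and 8.00, 8.10 and 7.97 with ITD-1, with all TGFβ1 arrays below the rest and TGFβ1 replicate 3 the lowest. The decrease was 31.9% (log2 fold change -0.56, SE 0.11, limma adjusted p = 0.0139), and the call was lost without control replicate 1 (adjusted p = 0.0629) or control replicate 2 (0.0625) and in the adjusted analysis of variance (0.0680).

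The core proteins *Uqcrc1* and *Uqcrc2* form the matrix face of complex III. *Uqcrc2* measured 10.06, 9.97 and 9.87 in control cells, 9.69, 9.69 and 9.54 with TGFβ1 and 9.99, 10.03 and 9.81 with ITD-1, with the TGFβ1 arrays lowest and just outside the threshold (log2 fold change -0.33, SE 0.08, limma adjusted p = 0.0524). *Uqcrc1* measured 9.86, 9.75 and 9.55 in control cells, 9.48, 9.48 and 9.20 with TGFβ1 and 9.64, 9.48 and 10.20 with ITD-1, where ITD-1 replicate 3 was the highest of all arrays and ITD-1 replicate 2 as low as the TGFβ1 arrays. *Uqcrq*, a small subunit, had the largest decrease among the complex III genes that did not pass (-0.37, adjusted p = 0.150). It measured 7.80, 7.90 and 7.63 in control cells, 7.49, 7.60 and 7.14 with TGFβ1 and 7.59, 7.48 and 7.70 with ITD-1. With the block *Uqcrc2* passed (adjusted p = 0.0243 over all arrays and 0.0468 over control and TGFβ1 alone). *Uqcrc1* (log2 fold change -0.33, adjusted p = 0.420 without the block) and *Uqcrq* passed with the block over control and TGFβ1 alone (0.0472 and 0.0486), and not with the block over all arrays (0.477 and 0.168).

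*Cycs*, the gene of the somatic form of cytochrome c, measured 3.26, 3.01 and 2.92 in control cells, 3.03, 3.00 and 2.77 with TGFβ1 and 3.06, 2.87 and 3.01 with ITD-1. All groups overlapped, and neither treatment passed the test (log2 fold change with TGFβ1 -0.13, 95% interval -0.37 to 0.11, and with ITD-1 -0.08, -0.32 to 0.16). The probe set lay below the median level of the tested probe sets, and the mouse genome also holds many processed pseudogenes of this gene, so its values are uncertain.

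**Figure D3:**
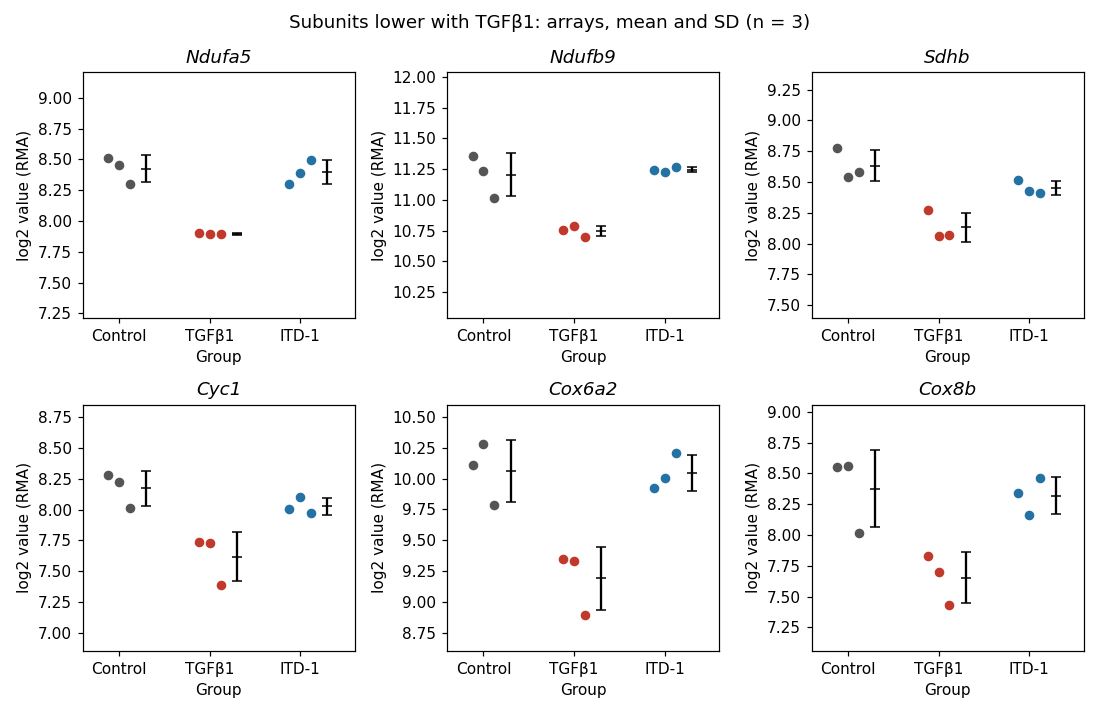
Log2 values (points, 1 per array) of 6 genes that fell with TGFβ1, in the control, TGFβ1 and ITD-1 groups, with the mean and SD of the 3 arrays in black and axes that all span 2 log2 units. In each panel the 3 TGFβ1 arrays lie below all 6 others, from *Ndufa5*, whose TGFβ1 arrays coincide, to *Cox6a2* and *Cox8b*, whose decrease and spread are wider.

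Complex IV had the widest range of responses. With TGFβ1 2 of its 13 genes fell (beside 2.78% of all tested probe sets), and the median log2 fold change was -0.19. The 2 were *Cox6a2* and *Cox8b*, both isoforms of heart and skeletal muscle, and they had the largest decreases of the 49 genes. *Cox6a2* measured 10.11, 10.28 and 9.79 in control cells, 9.35, 9.33 and 8.89 with TGFβ1 and 9.92, 10.01 and 10.21 with ITD-1. The TGFβ1 arrays were lowest without overlap, and *Cox6a2* was 45.3% lower than in control cells (log2 fold change -0.87, SE 0.16, limma adjusted p = 0.00838). Its call was lost only in the study's analysis of variance adjusted over all genes (adjusted p = 0.0639), 1 of 19 alternatives.

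*Cox8b* measured 8.55, 8.56 and 8.01 in control cells, 7.83, 7.70 and 7.43 with TGFβ1 and 8.34, 8.16 and 8.46 with ITD-1. Control replicate 3 was well below the other control arrays but still above all TGFβ1 arrays, and the decrease was 39.3% (log2 fold change -0.72, SE 0.16, limma adjusted p = 0.0263). The call was lost without control replicate 1 (adjusted p = 0.108), control replicate 2 (0.111), TGFβ1 replicate 2 (0.0759) or TGFβ1 replicate 3 (0.0902), and it held in 13 of 19 alternatives. *Cox7a1*, the third muscle isoform, measured 5.54, 5.42 and 5.20 in control cells, 5.14, 5.33 and 4.91 with TGFβ1 and 5.48, 5.08 and 5.57 with ITD-1. Its groups overlapped, and it did not pass (log2 fold change -0.26, adjusted p = 0.476).

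The ubiquitous partners of these isoforms did not pass the test. *Cox6a1* measured 12.07, 11.97 and 11.90 in control cells, 11.84, 11.90 and 11.81 with TGFβ1 and 11.83, 11.71 and 12.19 with ITD-1, a log2 fold change with TGFβ1 of -0.13 (95% interval -0.39 to 0.12). *Cox8a* measured 10.51, 10.47 and 10.37 in control cells, 10.31, 10.32 and 10.16 with TGFβ1 and 10.11, 10.15 and 10.46 with ITD-1, with a log2 fold change of -0.19 (-0.41 to 0.03). *Cox7a2* measured 7.29, 7.17 and 7.13 in control cells, 7.08, 7.03 and 6.45 with TGFβ1 and 7.11, 7.06 and 7.22 with ITD-1, with a log2 fold change of -0.34 (-0.68 to -0.01) in which TGFβ1 replicate 3 stood apart, and one of -0.14 without that array. In all of these the TGFβ1 arrays lay just below the control arrays, beside 10.1% of all tested probe sets. For *Cox6a1* the closest pair differed by less than the printed decimals. Their log2 fold changes were smaller in size than those of *Cox6a2* and *Cox8b*. As none passed, a decrease in the ubiquitous isoforms was not established.

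Taking the difference between the muscle and the ubiquitous isoform within each array cancels a log2 shift of equal size in both. The isoforms lay at unlike levels (control means 10.06 for *Cox6a2* and 11.98 for *Cox6a1*). Whether an equal change gives an equal shift at such levels was not tested. Relative to the control mean, the *Cox6a2* minus *Cox6a1* difference ran from -0.19 to 0.23 on the control arrays, from -0.995 to -0.57 with TGFβ1 and from -0.06 to 0.22 with ITD-1. The change with TGFβ1 was -0.74 (95% interval -1.14 to -0.34), with no overlap between groups. The *Cox8b* minus *Cox8a* difference ran from -0.28 to 0.16, from -0.65 to -0.40 and from 0.08 to 0.30 in the same order, a change with TGFβ1 of -0.53 (-0.88 to -0.18), again without overlap. The *Cox7a1* minus *Cox7a2* difference ran from -0.11 to 0.06, from -0.13 to 0.27 and from -0.17 to 0.18, a change of 0.08 (-0.26 to 0.43). With any one array left out, the changes with TGFβ1 of the first pairs stayed between -0.83 and -0.61 and between -0.67 and -0.45, while that of the third ran from -0.0098 without TGFβ1 replicate 3 to 0.19 without TGFβ1 replicate 1. An exact permutation test, two-sided, gave p = 0.1 for each of the first pairs, the smallest p that 3 arrays against 3 allow, and p = 0.5 for the third, and over the 9 tests of pairs the Benjamini-Hochberg adjusted p was 0.225 or more. With ITD-1 the changes were 0.06, 0.16 and 0.06 for the *Cox6a*, *Cox8* and *Cox7a* pairs, each with overlapping arrays, and with single arrays left out those of *Cox6a* (-0.039 to 0.17) and *Cox7a* (-0.0056 to 0.17) turned in sign.

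**Figure D4:**
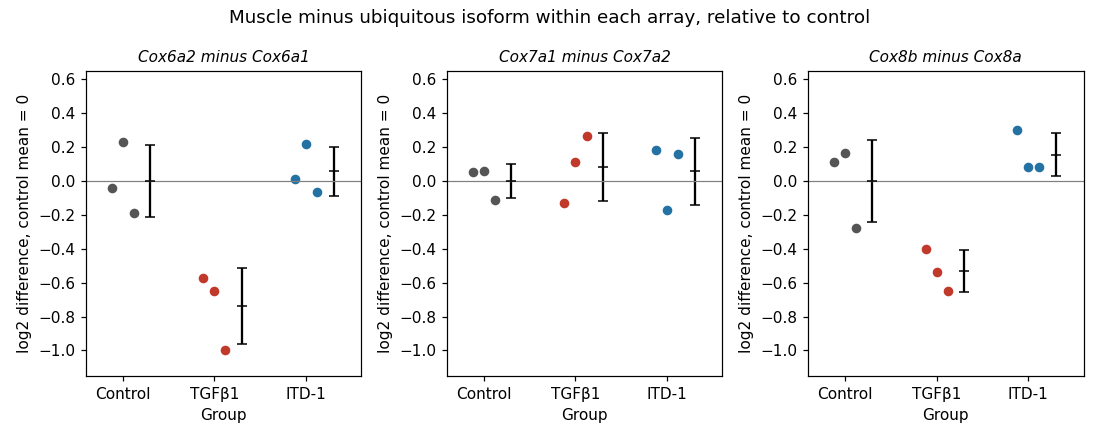
Difference in log2 value between the muscle and the ubiquitous isoform of 3 complex IV subunits within each array, set so that the control mean is 0 (points, 1 per array, and mean with SD of 3 arrays in black). The TGFβ1 arrays lie below the control and ITD-1 arrays for *Cox6a2* minus *Cox6a1* and *Cox8b* minus *Cox8a*, while for *Cox7a1* minus *Cox7a2* they overlap both groups, with TGFβ1 replicate 3 (0.27) the highest of the 9.

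*Cox7b*, a small subunit with low signal on this array, was the other gene whose fold change with TGFβ1 was not below 0. It measured 3.49, 3.14 and 3.36 in control cells, 3.34, 3.28 and 3.43 with TGFβ1 and 2.84, 3.39 and 3.44 with ITD-1, with full overlap and ITD-1 replicate 1 the lowest. The 11 complex IV genes that did not pass ranged from -0.34 to 0.02. In 8 of them the TGFβ1 arrays lay below all control arrays, beside 10.1% of all tested probe sets.

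RefSeq promoter windows (GRCm38.p6, 250 bases before to 50 bases after the start of the gene) were on hand for 39 of the 49 genes and were searched on both strands for the motifs of factors known to act on respiratory or muscle genes. The letters searched for NRF1, CGCATGCG, were present for 4 of the 39 genes (10.3%) against 2.70% of 18383 tested genes with a promoter. Those for GABPA, CCGGAAG, were present for 10 (25.6%, against 12.5%), those for ESRRA, AAGGTCA, for 2 (5.13%, against 4.79%), those for MEF2, CTA and TAG separated by any 4 bases, for 1 (2.56%, against 4.24%) and the muscle E-box CAGCTG for 4 (10.3%, against 18.3%). Of the 9 genes that fell and had a promoter window, none held the NRF1 letters, *Sdhb* held the GABPA letters and *Cox8b* the E-box. The other genes with the E-box (*Ndufa8*, *Ndufb10* and *Ndufv2*) did not pass with TGFβ1, and neither did the other genes with the GABPA letters. The windows around the match are printed below for *Cox8b*, a muscle isoform that fell, and for *Cox6a1* and *Cycs*, ubiquitous genes that did not pass, each read on the strand of the gene, all of them minus, with the motif in capitals.
Cox8b, E-box, chr7:140900447-140900495: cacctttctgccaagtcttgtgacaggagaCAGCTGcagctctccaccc
Cox6a1, NRF1, chr5:115349082-115349149: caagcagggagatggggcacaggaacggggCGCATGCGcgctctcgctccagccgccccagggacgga
Cycs, NRF1, chr6:50566593-50566660: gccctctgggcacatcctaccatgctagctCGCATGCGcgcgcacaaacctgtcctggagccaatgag

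The *Cox8b* match starts 19 bases before the annotated start, the *Cox6a1* match 161 bases and the *Cycs* match 61 bases before it. These are matches of letters, and binding was not measured.

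No respiratory chain gene passed the test with ITD-1. None of the 49 fell and none rose, beside 0.575% of all tested probe sets that fell and 0.0607% that rose, and at an unadjusted p under 0.05 the count was 2 lower and 0 higher, beside 4.46% and 3.42% of all tested probe sets. The analysis of variance adjusted over all genes also called none, beside 0.0688% of all tested probe sets that fell and 0.00405% that rose. The median log2 fold change was -0.04 against 0.01 over all tested probe sets, and the values ran from -0.28 to 0.17. By complex the medians were -0.02 for complex I, -0.06 for complex II, -0.08 for complex III and -0.05 for complex IV. These medians moved with single arrays, as that of the 49 genes ran from -0.11 without ITD-1 replicate 3 to 0.018 without control replicate 1, that of complex I from -0.096 without control replicate 3 to 0.032 without control replicate 1 and that of complex IV from -0.11 without ITD-1 replicate 3 to 0.0027 without ITD-1 replicate 2. The ITD-1 arrays lay below all control arrays in 3 of 49 genes (*Ndufs3*, *Sdhb* and *Cox6c*), beside 5.92% of all tested probe sets.

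The ITD-1 values leave room for changes in either direction. For *Cox6a2* the log2 fold change with ITD-1 was -0.02 with a 95% interval of -0.37 to 0.33, and for *Ndufa5* it was -0.03 (-0.20 to 0.15). The largest decrease was that of *Ndufs3* (-0.28, -0.55 to -0.02, adjusted p = 0.584) and the largest increase that of *Ndufb3* (0.17, -0.23 to 0.57, adjusted p = 0.879).

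The TGFβ1 and ITD-1 groups were also set against each other, a comparison that shares the TGFβ1 arrays with the first. Of the 49 genes, 10 were lower with TGFβ1 than with ITD-1 (20.4%, beside 4.26% of all tested probe sets) and none was higher (beside 5.92%), with 20 lower and 0 higher at an unadjusted p under 0.05 (beside 10.4% and 10.8%) and 4 lower in the adjusted analysis of variance (beside 3.15%) and 3 by the study's own criteria (beside 1.84%). The median log2 difference was -0.24 against -0.03 over all tested probe sets, and -0.14 without TGFβ1 replicate 3. The count was 4 without TGFβ1 replicate 3, 5 without TGFβ1 replicate 2 or ITD-1 replicate 1, and 6 without control replicate 2. The share of all tested probe sets under these fits is not given here, so a general loss of calls cannot be set apart. *Ndufa5* (-0.50), *Ndufb9* (-0.50) and *Cox6a2* (-0.86) were lower in all 18 alternatives. *Ndufa9* had a log2 difference of -0.68 (adjusted p = 0.00888) and *Cox8b* one of -0.67 (adjusted p = 0.0267). *Sdhc* (-0.51) and *Uqcrc2* (-0.30) passed here and not against control, each in 7 of 18 alternatives. *Sdhb* (-0.32) and *Cyc1* (-0.41), which had also passed against control, were likewise lower in 7 of 18. With the replicate number as a block 11 genes were lower, again with no share of all tested probe sets given. *Sdhc* was lost (adjusted p = 0.0596), and *Ndufab1* (0.0297, from 0.0505 without the block) and *Ndufs1* (0.0445, from 0.0567) were gained. Without TGFβ1 replicate 2 or 3 the calls of *Sdhb*, *Sdhc*, *Cyc1*, *Uqcrc2* and *Cox8b* were all lost.

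Genes that work with the respiratory chain were counted from lists of known function. Of 19 further structural subunits listed, 16 were measured and none fell or rose with TGFβ1, with a median log2 fold change of -0.15 and 5 lower and 0 higher at an unadjusted p under 0.05 (beside 7.68% and 8.44% of all tested probe sets). Their median was closer to 0 than that of the 49 genes, which like the lists were chosen with results known. Of 12 measured genes of ATP synthase (18 listed), 4 fell and none rose (beside 2.78% and 3.65% of all tested probe sets), with a median of -0.29. They were *Atp5k* (subunit e, log2 fold change -0.67, adjusted p = 0.0114), *Atp5pb* (subunit b, -0.43, 0.0257), *Atp5a1* (the alpha subunit, -0.30, 0.0278) and *Atp5c1* (the gamma subunit, -0.35, 0.0339), all given the symbols of the array table. The *Atp5k* call was lost without control replicate 1 or 2, and the others held in 10 to 12 of 19 alternatives and were lost without control replicate 1 or 2 or TGFβ1 replicate 2 or 3, *Atp5pb* also without control replicate 3 or TGFβ1 replicate 1, *Atp5a1* also without TGFβ1 replicate 1 and *Atp5c1* also without ITD-1 replicate 2. With the block in the fit of control and TGFβ1 alone *Atp5a1* was lost (adjusted p = 0.0617).

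Of 43 assembly factors, which insert cofactors and join subunits, 6 fell with TGFβ1 (13.95%) and none rose, with a median of -0.19. Of all tested probe sets 2.78% fell and 3.65% rose. The copper chaperone *Sco1* of complex IV measured 7.63, 7.62 and 7.42 in control cells, 7.07, 7.18 and 6.94 with TGFβ1 and 7.67, 7.73 and 7.60 with ITD-1, so that TGFβ1 arrays were lowest without overlap (log2 fold change -0.49, SE 0.09, limma adjusted p = 0.00791), and it fell in all 19 alternatives. *Lrpprc*, which stabilises mitochondrial mRNA, and *Uqcc1*, an assembly factor of complex III, also fell (-0.34 and -0.36, adjusted p = 0.0140 and 0.0205). Both were lost without control replicate 1 or 2 or TGFβ1 replicate 1, *Lrpprc* also without TGFβ1 replicate 2 and *Uqcc1* also without TGFβ1 replicate 3. With the block in the fit of control and TGFβ1 alone both were lost as well (adjusted p = 0.0720 and 0.0519).

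Of 14 regulators of respiratory gene transcription none fell or rose against control with TGFβ1, beside 2.78% and 3.65% of all tested probe sets, and the median was -0.01. At an unadjusted limma p under 0.05, 2 were lower and 0 higher, beside 7.68% and 8.44% of all tested probe sets. *Ppargc1a*, the coactivator PGC-1α, measured 6.58, 6.71 and 6.35 in control cells, 6.30, 6.05 and 6.00 with TGFβ1 and 6.38, 6.13 and 6.07 with ITD-1. The TGFβ1 arrays lay below the control arrays, and ITD-1 replicate 1 lay within the control range. Neither treatment passed, with a log2 fold change of -0.43 for TGFβ1 (adjusted p = 0.0773) and one of -0.35 for ITD-1 (adjusted p = 0.451). With the block *Ppargc1a* passed with TGFβ1 over all arrays (adjusted p = 0.0338) and not over control and TGFβ1 alone (0.0682). *Tfb1m*, a methyltransferase of mitochondrial ribosomal RNA, measured 6.90, 6.88 and 6.70 in control cells, 6.51, 6.61 and 6.51 with TGFβ1 and 7.02, 6.95 and 6.97 with ITD-1, just outside the threshold with TGFβ1 (-0.28, adjusted p = 0.0502) and lower with TGFβ1 than with ITD-1 (-0.44, adjusted p = 0.00336). With ITD-1 against control no gene of these 4 lists (16, 12, 43 and 14 genes measured) passed, beside 0.575% of all tested probe sets that fell and 0.0607% that rose. Over the lists 3 genes were lower and 2 higher at an unadjusted limma p under 0.05, beside 4.46% and 3.42% of all tested probe sets.

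**Figure D5:**
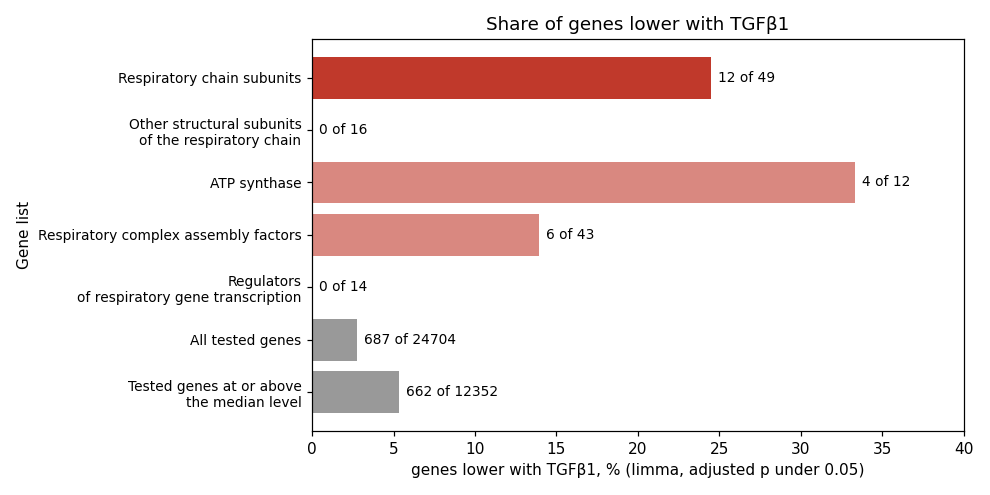
Share of genes that fell with TGFβ1 (limma adjusted p under 0.05), in percent, for the 49 respiratory chain genes (dark red), 4 lists of related genes (light red) and all tested genes (grey), with the counts beside each bar. The 49 genes (24.5%) and ATP synthase (33.3%) have the longest bars, against 2.78% of all tested genes and 5.36% of those at or above the median level.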

How the data were processed

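RNA from 9 cultures of mouse primary myocytes was hybridised to Affymetrix mouse gene arrays, 1 array per culture, in 3 groups of 3. Per the labels and methods, the authors normalized the arrays with RMA on a custom probe set definition and deposited log2 values, with Partek named for the statistics. RMA brings arrays to a shared distribution, so a shift common to all genes would not be seen.

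Of 25428 probe sets, 723 had no symbol and 1 shared its symbol with another, which left 24704 tested. Limma (version 3.58.1, R 4.3.3) was fitted by lmFit and eBayes with a mean per group over all 9 arrays, two-sided, with Benjamini-Hochberg adjustment over all tested probe sets. The study's one-way analysis of variance, with unadjusted p under 0.05 and at least 1.5-fold, was an alternative. It was run as unmoderated contrasts of group pairs with a residual variance shared by all groups, not as an overall test of the groups. The fit was also tested on simulated data. The labels do not say that replicates came from separate animals. The paper's figure legend gives 3 biologically independent experiments for this transcriptome analysis and does not mention animals. The p-values therefore measure only the spread between these cultures.

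Residuals of arrays with the same replicate number correlated at r = 0.138 to 0.305 between control and TGFβ1 (over 0.1 in 3 of 3), -0.0707 to 0.146 between control and ITD-1 and -0.117 to 0.0869 between TGFβ1 and ITD-1. The number was therefore also fitted as a block. The correlations above are over all tested probe sets, where control replicate 1 and TGFβ1 replicate 2 also reached 0.102. Over the respiratory chain genes alone, those between control and TGFβ1 arrays of the same number were -0.067, -0.011 and -0.147. Further alternatives were median centring, cyclic loess, a filter at the median level, trend and robust settings, only the compared groups, array weights, all probe sets, and leaving out each array. The block in a fit of control and TGFβ1 alone, and the alternatives for the isoform pairs, were chosen after seeing the data.

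The members and lists were chosen with earlier results of these data known. Genes named were the called genes with the smallest adjusted p (at most 2 per complex and comparison), the largest rise and fall per complex, the isoform pairs, complex II, *Cycs*, and up to 3 genes of each related list by adjusted p. Other names were picked after seeing their values. The 13 mitochondrially encoded subunits had no match by symbol, and protein sequences were not used here. Figures were drawn with matplotlib 3.10.9.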

Additional observations from a re-analysis of the deposited data

How the results depend on the processing

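With TGFβ1 the number of respiratory chain genes that fell (12) became 7 with median centring (beside 2.11% of all tested probe sets), 5 with the study's analysis of variance after adjustment (1.93%) and 2 by the study's own criteria (1.28%). It was 4 to 14 when single arrays were left out. Against ITD-1 the number (10, beside 4.26% of all tested probe sets) became 5, 4 (beside 3.15%) and 3 (beside 1.84%) under the same settings. It was 4 to 8 with single arrays left out. No share is given for median centring or the left-out arrays in this comparison. Over all tested probe sets the number that fell with TGFβ1 went from 687 to between 434 and 736 with single arrays left out, and the cause was not tested. With the replicate number as a block 11 genes fell (beside 2.72% of all tested probe sets), 10 of them among the 12. With the block in a fit of control and TGFβ1 alone 14 fell (beside 2.64%), 10 of them among the 12. The first block fit lost *Ndufa9* and *Sdha* and gained *Uqcrc2*, and the second lost *Ndufab1* and *Sdha* and gained *Ndufb7*, *Uqcrc1*, *Uqcrc2* and *Uqcrq*. Array weights gave 17 (beside 3.95% of all tested probe sets). No respiratory chain gene was called with ITD-1 under any setting run, and none rose with TGFβ1. The median fold changes of the complexes and the isoform differences each moved by less than 1 SD between arrays, pooled over the 3 groups, which is wider than the SD of some single groups.

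Signs turned for values near 0, among them the medians with ITD-1 and the isoform differences given above. *Uqcrc1* with ITD-1 became -0.055 with array weights, and *Cox6a1* in TGFβ1 against ITD-1 became 0.011 with cyclic loess. With single arrays left out, log2 fold changes with TGFβ1 ranged from -0.13 to 0.22 for *Ndufb3* and from -0.0731 to 0.10 for *Cox7b*. With ITD-1 they ranged from -0.21 to 0.0286 for *Cox6a1*, from -0.15 to 0.0953 for *Cox6a2*, from -0.11 to 0.14 for *Cox7a1*, from -0.21 to 0.0887 for *Cox7b*, from -0.23 to 0.0384 for *Cox8b*, from -0.15 to 0.0183 for *Cycs*, from -0.0879 to 0.0193 for *Ndufa5*, from -0.0308 to 0.23 for *Ndufa9*, from -0.0532 to 0.12 for *Ndufb9*, from -0.0214 to 0.26 for *Sdhc*, from -0.16 to 0.058 for *Sdhd*, from -0.16 to 0.20 for *Uqcrc1* and from -0.068 to 0.0458 for *Uqcrc2*. For TGFβ1 against ITD-1 they ranged from -0.16 to 0.0796 for *Cox6a1*, from -0.0664 to 0.23 for *Cox7b*, from -0.0437 to 0.13 for *Cox8a* and from -0.10 to 0.0337 for *Cycs*. The cause of these turns was not tested.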
